A study of Xenopus laevis with 9 samples.

Results

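The 200 transcripts described here were counted in every blastula explant library and were at a small fraction of that level in neural plate border (NPB) explants. Levels are counts scaled to a library total of 1000000 (CPM). A gene was kept where each of the 3 stage 9 wild-type libraries held at least 10 CPM and the mean of the 3 stage 11.5 NPB libraries was at most 0.1 of the wild-type mean. Of 51061 genes in the count tables, 11531 reached 10 CPM in each wild-type library and 618 of these were at or under the ratio limit. The 200 with the lowest ratio of NPB to wild-type mean, after adding 0.05 CPM to both, form the set, with the foxi genes left out. The levels in NPB and wild-type libraries therefore chose the set, and they are given below as a description without a test.

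The eggs of Xenopus laevis carry a store of maternal mRNA, made in the oocyte, that runs the cell cycles and protein synthesis of the cleaving embryo. Around the mid-blastula transition the zygotic genome is switched on, and much of the maternal store is then deadenylated and degraded, in part through AU-rich element binding proteins and deadenylase adaptors that are themselves encoded by maternal mRNAs. Maternal forms of cyclins, kinases, linker histones and Pou5f3 factors give way to zygotic paralogs over the same period. Animal pole cells of the blastula are pluripotent and form ectoderm, and the neural plate border is the part of the ectoderm from which neural crest and placodes arise. X. laevis is allotetraploid, so most genes have a copy on the L and on the S subgenome (homeologs), marked by the last letter of the gene name.

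RNA was sequenced from animal pole explants in 9 libraries, 3 in each of 3 groups, all labelled as genotype wild type. St11.5 NPB explants were at stage 11.5 and labelled as treated with Wnt8a and Chordin mRNA, St9 soxb1 morphant explants were at stage 9 and carried soxb1 morpholinos, and St9 wild-type explants were at stage 9 without treatment. Stage, labelled mRNA treatment and the table in which the counts were deposited all differed between NPB and wild-type libraries and cannot be told apart. The labels do not say whether replicates came from separate clutches, and the methods call them biological replicates without naming their source, so the p-values measure only the spread between these samples, part of which may be technical.

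Library totals were between 25796466 and 48839143 counts, and a count of 3, taken as the floor of detection, corresponded to between 0.0614 and 0.116 CPM. Summed over the list of 64 neural plate border, crest and neural genes, NPB libraries held 3153 to 4146 CPM, morphant libraries 199.96 to 270.1 CPM and wild-type libraries 408 to 529.8 CPM. The 43 epidermal genes summed to 3169 to 3997 CPM in NPB, 1922 to 2141 CPM in morphant and 1468 to 1901 CPM in wild-type libraries, and the 39 mesoderm and endoderm genes to 421 to 710.0 CPM in NPB, 294 to 387 CPM in morphant and 153 to 291 CPM in wild-type libraries. wnt8a.L, on the mesoderm and endoderm list, shares its name with the Wnt8a mRNA of the treatment label. It had 291, 546 and 293 CPM in NPB libraries and means of 0.433 CPM in morphants and 0.624 CPM in wild type. wnt8a.L made up most of that list's sum in each NPB library, and the rest did not exceed the wild-type range. Counts of the treatment mRNA and of the embryo's own transcript were not told apart. The part of the cell type markers of these lists in the levels below was not tested. In bulk RNA, fewer cells of a type and less RNA per cell cannot be told apart, and a smaller share of a library does not tell loss of a transcript from gain of others. sox3.S, a soxb1 transcript, had 665, 631 and 901 CPM in morphants and 440.0, 376 and 659 CPM in wild type. sox3.L had 313, 388 and 485 CPM in morphants and 186, 174 and 268 CPM in wild type. Both were called higher in the paired edgeR fit described below (log2 fold change 0.60 for sox3.S and 0.92 for sox3.L). The authors also reported sox2 and sox3 as upregulated in morphants. Morpholinos that block translation need not lower their target RNA.

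Together the 200 transcripts took 0.0348%, 0.0608% and 0.0924% of the counts in NPB libraries 1, 2 and 3. They took 2.07%, 2.27% and 2.31% in the morphant libraries and 1.86%, 2.08% and 2.29% in the wild-type libraries. NPB means were between 1.14% and 5.53% of the wild-type mean, with a median of 3.88%, while the median over all 11531 genes at 10 CPM or more was 55.2%. Scaling by TMM, a trimmed mean of ratios that sets most genes equal, in place of library totals raised NPB over wild type by 0.69 on the log2 scale at the median gene. On that scale the 200 were at 1.79% to 8.87% of wild type (median 6.14%) and the median of the 11531 genes was 89.0%, so most genes stood nearer to their wild-type level on that scale. Percentages below are by library totals, and a gene above its wild-type mean by TMM alone is named as such. In wild-type explants the set ranged over means from 10.7 to 2479 CPM (median 51.6, against 45.7 for the 11531 genes), and 44 of the 200 were at 100 CPM or more (22%, against 21.5%).

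The highest of them, LOC108719063, for which the files give no further name, had 34.0, 51.3 and 65.2 CPM in NPB libraries, 1767, 3356 and 2949 CPM in morphant libraries and 1989.7, 2901 and 2547 CPM in wild-type libraries. The lowest ratio after the 0.05 CPM was added belonged to MGC68639, with 0.352, 0.901 and 3.17 CPM in NPB, 124, 137 and 125 CPM in morphants and 96.8, 140.3 and 129 CPM in wild type. Both were over 10 times lower in every NPB library than in any stage 9 library. A gap of this size between the highest NPB and the lowest wild-type library was present for 175 of the 200. For all 200 each NPB library was below each wild-type library. The rule favours both counts, and their shares among the other genes at 10 CPM or more in wild type were not counted. Few of the 200 transcripts reached 0 in an NPB library. Only plcl2.S and LOC100653500 (provisionally gabrr1) had no count in NPB library 1, and LOC100653500 had none in NPB library 3.

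**Figure D1:**
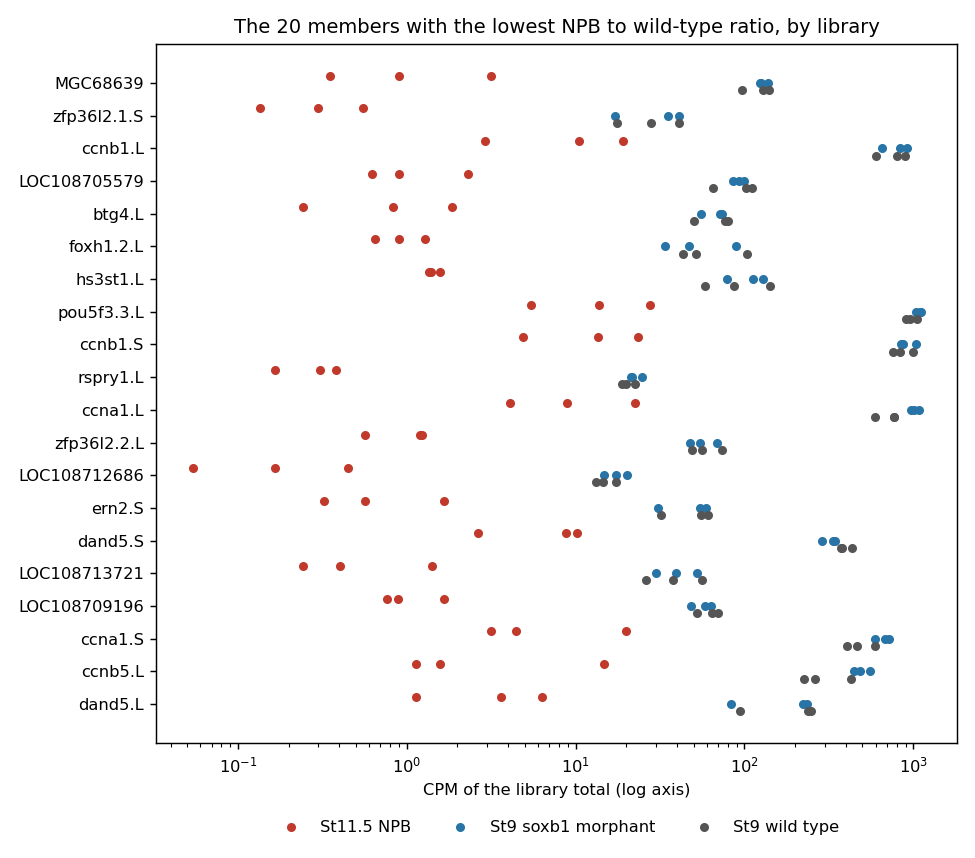
Level of the 20 transcripts with the lowest NPB to wild-type ratio in each of the 9 libraries, in CPM of the library total on a log axis (red, St11.5 NPB; blue, St9 soxb1 morphant; grey, St9 wild type; 1 point per library). The NPB points of ccnb1.L lie between 2.93 and 19.1 CPM and its stage 9 points between 599 and 922 CPM.

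Grouped by what the encoded proteins are known to do, with groups set after the names and values were seen, 114 of the 200 fell into 8 groups and 86 were given none. Regulators of mRNA decay and translation made up 13. zfp36l2.1.S, of the zinc finger family that binds AU-rich elements and recruits deadenylases, was at 0.136, 0.3 and 0.553 CPM in NPB and 17.5, 28.0 and 41.1 CPM in wild-type libraries, 1.14% of wild type. zfp36l2.2.L had 0.569, 1.23 and 1.21 CPM in NPB and 48.8, 56.2 and 73.4 CPM in wild type. Both transcripts were over 10 times lower in every NPB library than in any wild-type library. btg4, known in mouse as an adaptor that brings the CCR4-NOT deadenylase to maternal mRNAs, had both homeologs in the set. btg4.L had 0.244, 0.834 and 1.86 CPM in NPB and 50.3, 79.5 and 76.3 CPM in wild type, and btg4.S had 0.542, 2.04 and 8.35 CPM in NPB and 96.2, 120.4 and 90.6 CPM in wild type. The related btg5.1.L was at 2.02% of wild type.

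cpeb1, which controls cytoplasmic polyadenylation of stored mRNAs in Xenopus oocytes, was also present as both homeologs. cpeb1.L had 0.786, 0.734 and 6.78 CPM in NPB and 59.7, 91.4 and 148 CPM in wild type, and cpeb1.S had 0.515, 0.834 and 6.31 CPM in NPB and 26.2, 48.8 and 101 CPM in wild type. In both, NPB library 3 was several times above the other NPB libraries and still below every wild-type library. patl2.L, an oocyte member of the Pat1 family of translational repressors, had 2.47, 7.31 and 9.58 CPM in NPB and 126, 117 and 117 CPM in wild type. zar1l.S, which encodes a zygote arrest protein that binds maternal mRNA, had 1.003, 1.57 and 2.83 CPM in NPB and 29.9, 56.5 and 35.8 CPM in wild type. The rest of the group were ythdc2.L, a helicase that recognises methylated RNA, the poly(A) polymerases tent5b.S and papd5.S, and LOC108713875, provisionally zfp36. Over the 13 genes NPB means were between 1.14% and 5.39% of wild type.

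Cell cycle and spindle genes made up 15 and held several of the most abundant transcripts. Cyclin B1, the partner of Cdk1 at entry into mitosis, was represented by both homeologs. ccnb1.S had 4.88, 13.5 and 23.5 CPM in NPB and 761, 835 and 997 CPM in wild type. ccnb1.L had 2.93, 10.5 and 19.1 CPM in NPB and 798, 891 and 599 CPM in wild type. Both were over 10 times lower in every NPB library than in any wild-type library. ccna1.L, which encodes the embryonic A-type cyclin of Xenopus, had 4.09, 8.91 and 22.6 CPM in NPB and 597, 773 and 766 CPM in wild type. ccna1.S had 3.17, 4.47 and 20.004 CPM in NPB and 406, 466 and 592 CPM in wild type. ccnb5.L, another B-type cyclin, had 1.14, 1.57 and 14.7 CPM in NPB and 226, 262 and 431 CPM in wild type. All 5 cyclin transcripts were at 1.42% to 1.89% of wild type, and in all 5 NPB library 3 was the highest NPB library. fbxo43 (Emi2), an inhibitor of the anaphase-promoting complex that holds the egg in metaphase, had 0.434, 1.502 and 3.01 CPM in NPB and 32.0, 32.4 and 43.4 CPM in wild type for the L copy. The S copy had 0.136, 0.667 and 1.13 CPM in NPB and 12.599, 18.9 and 32.2 CPM in wild type. wee2.L, a kinase that inhibits Cdk1 in oocytes and early embryos, had 2.14, 4.71 and 10.7 CPM in NPB and 133, 119.8 and 163 CPM in wild type. The spindle and centrosome genes ssx2ip.L, ssx2ip.S, tubgcp3.L, ndel1.S and XB5953084.L (provisionally kif20a) were at 3.12% to 5.13%, and XB5882685.L (provisionally cdca7) at 2.61%.

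Transcription factors and secreted signals made up 18. pou5f3.3 (Oct60), the maternal Pou5f3 factor related to mammalian Oct4, had 5.45, 13.8 and 27.5 CPM in NPB and 903, 960.3 and 1047 CPM in wild type for the L copy. The S copy had 4.17, 7.64 and 21.5 CPM in NPB and 478, 574 and 605 CPM in wild type. All 3 Foxh1 transcripts of the table, which encode the partner of activated Smads in Nodal signalling, were in the set. foxh1.2.L had 0.651, 0.901 and 1.29 CPM in NPB and 43.3, 52.0 and 103 CPM in wild type, foxh1.L was at 3.21% of wild type and foxh1.S at 3.71%. dand5 (Coco), a secreted antagonist of BMP and Nodal ligands, had 2.66, 8.78 and 10.2 CPM in NPB and 377, 434 and 374 CPM in wild type for dand5.S. Its homeolog dand5.L had 1.14, 3.60 and 6.33 CPM in NPB and 239, 94.8 and 247 CPM in wild type. It was low in replicate 2 of the wild type and also of the morphants (221, 83.8 and 236 CPM).

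vegt, a maternal T-box factor needed for endoderm and known for its vegetal localisation, was nevertheless counted in animal pole explants. vegt.L had 0.678, 1.44 and 5.32 CPM in NPB and 107, 98.6 and 64.7 CPM in wild type, and vegt.S had 0.19, 1.47 and 6.55 CPM in NPB and 109.8, 75.8 and 46.2 CPM in wild type. Both NPB ranges were far below the wild-type ranges. The remaining factors and signals were klf2.L, ets1.S, fos.L, bcl6.L, foxr1.L, nr3c2.L (the mineralocorticoid receptor), the transcriptional coregulator cited2.L, the Wnt antagonist nkd1.S and the secreted stc1.L (stanniocalcin). They were at 1.80% to 5.41% of wild type.

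Chromatin and DNA repair genes made up 11. h1-8.L, the linker histone of the oocyte and early embryo, had 4.04, 13.0 and 13.6 CPM in NPB and 307, 269.7 and 379 CPM in wild type, and rif1.S, a regulator of replication timing, 13.6, 18.3 and 26.8 CPM in NPB and 458, 469.6 and 576 CPM in wild type. The others named here, the mismatch repair gene pms2.L, the histone H2A genes h2aj.S and h2ac1.S, the helicase gene helb.L, rpain.S, rnf8.L and the telomere gene pot1.L were at 2.49% to 5.52%. Among 19 genes of metabolism, redox and glycosylation were both homeologs of the heparan sulfate sulfotransferase hs3st1 (1.51% for L and 1.78% for S), catalase cat.2.L (3.01%), superoxide dismutase sod2.S (4.36%) and hprt1.L (4.34%), the purine salvage enzyme often taken as a reference gene. hprt1.L had 2.98, 2.102 and 4.38 CPM in NPB and 72.8, 69.9 and 75.3 CPM in wild type.

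Ubiquitin and protein turnover genes numbered 15 and were at 1.49% to 5.53% of wild type. They included both homeologs of the deubiquitinase cyld, the ubiquitin ligases cop1.S and LOC108712686 (provisionally marchf2) and the Nrf2 inhibitor keap1.L. keap1.L had 1.41, 2.002 and 1.76 CPM in NPB, 13.2, 15.3 and 69.2 CPM in morphants and 18.8, 19.7 and 71.4 CPM in wild type, so that replicate 3 was high in both stage 9 groups. Genes of the cytoskeleton and adhesion numbered 16, at 3.17% to 5.29%, among them kank1.L and kank1.S, the microtubule minus-end gene camsap1.S and the nuclear envelope gene sun1.S. The 7 apoptosis and TNF signalling genes, at 3.74% to 4.83%, included both homeologs of birc7, an inhibitor of apoptosis, and the adaptor tradd.L. The 86 genes without a group ranged over 1.21% to 5.498%.

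Within several families the low level was seen in some paralogs and not in others. These families were chosen after the values were seen and carry no test. Against ccna1 at 1.67% and 1.89% of wild type, the somatic A-type cyclin ccna2 was at 49.8% (L) and 26.4% (S), with 237, 326 and 311 CPM in NPB and 537, 634 and 583 CPM in wild type for ccna2.L. Among the B-type cyclins outside the set, ccnb1.2 was at 41.6% and 61.1% and ccnb2 at 18.6% and 28.0%, while ccnb3.S had 223, 312 and 279 CPM in NPB and 21.3, 15.3 and 21.3 CPM in wild type. B-type cyclins thus lay on both sides of their wild-type level. wee2.L was at 4.23% and its homeolog wee2.S, outside the set, at 8.85%, whereas wee1.L had 38.4, 49.0 and 31.3 CPM in NPB and 12.02, 10.08 and 10.7 CPM in wild type. wee1.S overlapped between the groups, with 39.9, 24.3 and 20.4 CPM in NPB and 14.9, 11.2 and 25.9 CPM in wild type. fbxo5 (Emi1), which inhibits the same complex as fbxo43 in somatic cycles, had 50.7, 64.1 and 61.6 CPM in NPB and 15.7, 23.3 and 20.7 CPM in wild type for the L copy. The S copy was closer between the groups, with 27.7, 34.3 and 31.1 CPM in NPB and 24.8, 20.1 and 27.0 CPM in wild type.

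The Pou5f3 genes also lay on both sides. pou5f3.1.L (Oct91) had 357, 445 and 459.5 CPM in NPB and 33.7, 28.2 and 53.7 CPM in wild type, and pou5f3.1.S 201, 416 and 429 CPM in NPB and 39.5, 24.9 and 53.1 CPM in wild type, with no overlap between the groups. pou5f3.2.L (Oct25) had 132, 740.3 and 630.1 CPM in NPB and 611, 524 and 691 CPM in wild type, which overlapped, and its mean was below wild type by library totals (82.3%) and above it by TMM (129%). Its homeolog pou5f3.2.S had 45.9, 189.1 and 188.7 CPM in NPB and 352, 304 and 402 CPM in wild type, without overlap. The mean of pou5f3.2.S was at 40.0% of wild type by library totals and 62.8% by TMM. Of the AU-rich element binding genes outside the set, zfp36l1.L had 34.1, 25.3 and 25.6 CPM in NPB and 4.69, 9.47 and 8.28 CPM in wild type, and zfp36.S 15.6, 23.1 and 27.0 CPM in NPB and 6.09, 5.25 and 1.57 CPM in wild type. zfp36l2.S had 13.9, 24.7 and 20.5 CPM in NPB and 10.4, 11.04 and 10.097 CPM in wild type. All 3 were higher in every NPB library than in any wild-type library. The homeolog zfp36l2.L overlapped between the groups, with 1.92, 10.8 and 6.96 CPM in NPB and 5.78, 5.64 and 3.99 CPM in wild type. btg1.L was at 176%. Its homeolog btg1.S, at 106%, overlapped between the groups, with 197, 200 and 299 CPM in NPB and 220, 216 and 222 CPM in wild type. cpeb4.S was at 104%, and patl1.L at 74.9% by library totals and 120.2% by TMM. The other Btg and Tob genes outside the set ran from 1.02% (btg5.1.S) to 114% (btg5.3.L), with btg3.L at 19.4%, btg3.S at 2.14% and tob1.L at 27.4%. Some relatives outside the set were low too, such as zar2.L (6.67%), zar2.S (6.71%) and btg5.2.S (6.15%). So were btg3.S (2.14%), btg5.1.S (1.02%) and cpeb3.S (5.19%), each under 10 CPM in at least 1 wild-type library.

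**Figure D2:**
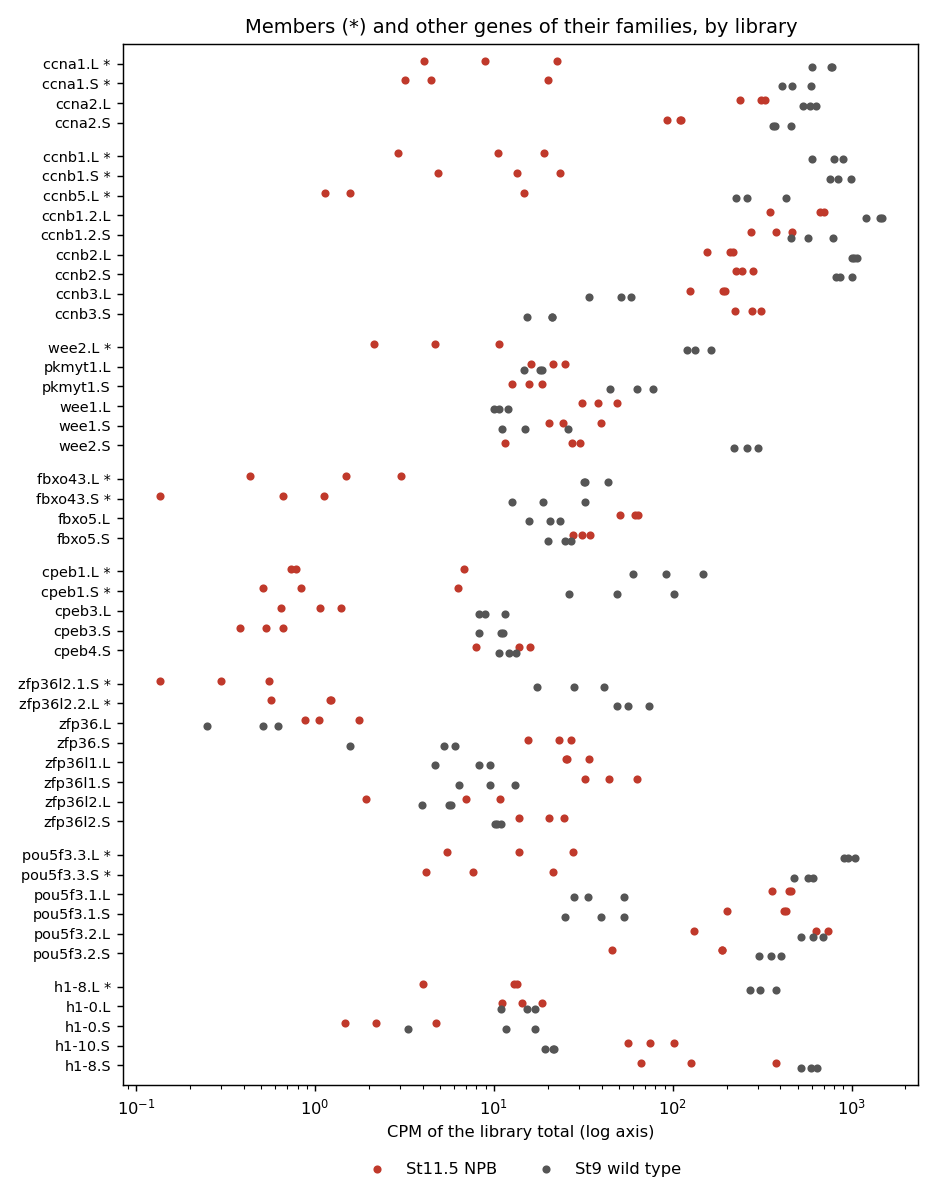
Level in each NPB (red) and wild-type (grey) library, in CPM of the library total on a log axis, of members of the set (marked with an asterisk) and of other genes in 8 of their families. The points of ccna1, pou5f3.3 and fbxo43 separate by more than 10-fold with NPB lower, and those of ccnb3, pou5f3.1 and zfp36l1 separate with NPB higher.

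The set held 101 L copies (50.5%, against 52.2% of the 11531 genes), 72 S copies (36%, against 38.5%) and 27 genes without a subgenome letter (13.5%, against 9.36%). In 20 pairs both homeologs were members. Another 52 members had a partner that reached 10 CPM in each wild-type library without being a member, 24 a partner below that level, 55 no partner row and 2 a partner whose name was listed more than once. Over the 52 partners the median was 12.58% of wild type by library totals and 20.1% by TMM. Of them, 18 were at 10% or less by library totals and 37 at 25% or less. The median over the 11531 genes was 55.2% by library totals, and the shares of those genes at these limits were not counted. Partners low enough to be members were not among the 52, which cuts off the lowest values.

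A few pairs differed widely. plekha4.S was at 4.83% of wild type, while plekha4.L had 61.4, 84.0 and 88.2 CPM in NPB and 40.9, 62.7 and 47.0 CPM in wild type, and its mean was the only 1 of the 52 above wild type by library totals (155%). cat.2.L had 1.33, 1.70 and 4.79 CPM in NPB and 76.3, 95.4 and 88.0 CPM in wild type, whereas cat.2.S had 44.4, 57.3 and 73.2 CPM in NPB and 71.7, 63.8 and 63.6 CPM in wild type. The wild-type levels of these catalase copies were alike and their NPB levels were over 10-fold apart. fgd6.S was at 4.39% and fgd6.L at 89.8%. By TMM the means of cat.2.S and fgd6.L were also above wild type, at 141% and 146%. rnf8.S was at 59.0% against 5.42% for rnf8.L, and cmtm7.L at 46.9% against 2.47% for cmtm7.S. h1-8.S, at 32.6% against 3.199% for h1-8.L, had 66.5, 379 and 126 CPM in NPB, with library 2 apart from the others. Counts of near-identical homeologs can be split by the alignment, and the files do not show how such reads were assigned.

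**Figure D3:**
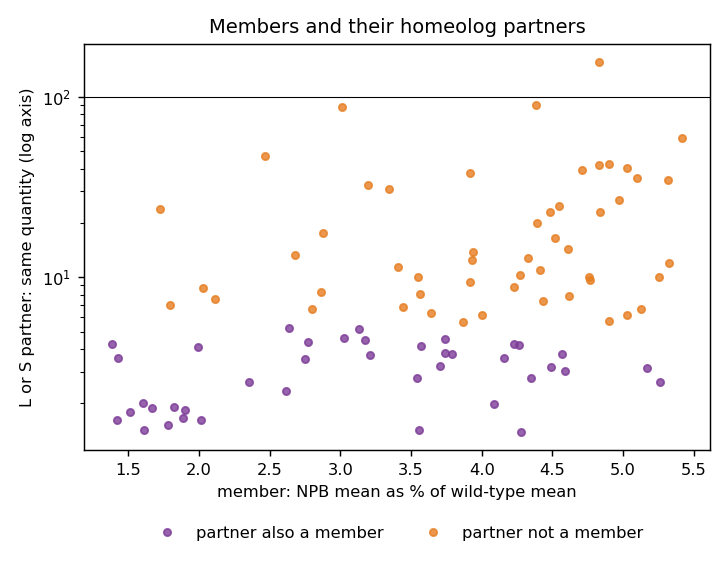
NPB mean as a percentage of the wild-type mean for members (horizontal axis) and their homeolog partners (vertical axis, log scale), from CPM of library totals. Only partners that are members or reached 10 CPM in each wild-type library are drawn. Purple points are pairs with both copies in the set and orange points the 52 partners outside it, which run from 5.68% to 155%, and the line marks 100%.

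The residual level differed between NPB libraries. The median member was at 1.83%, 3.83% and 5.23% of the wild-type mean in NPB libraries 1, 2 and 3. Library 1 was the lowest of the 3 for 171 members (85.5%), against 55.9% of the other 11331 genes at 10 CPM or more in wild type. Library 3 was the highest for 154 (77.0%, against 40.3%). By TMM these counts were 162 (81.0%, against 42.5%) and 151 (75.5%, against 30.3%). The mean of these libraries chose the set, and the rule did not use their order. Other transcripts also differed between these libraries. pax3.L, a neural plate border factor, had 458, 254 and 206 CPM in the NPB libraries, and chrd.1.S, which shares its name with the Chordin mRNA of the treatment label, 2458, 13318 and 2957 CPM. Their part in the residual level was not tested. Leaving out an NPB library kept 173 to 185 of the 200 in the set.

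**Figure D4:**
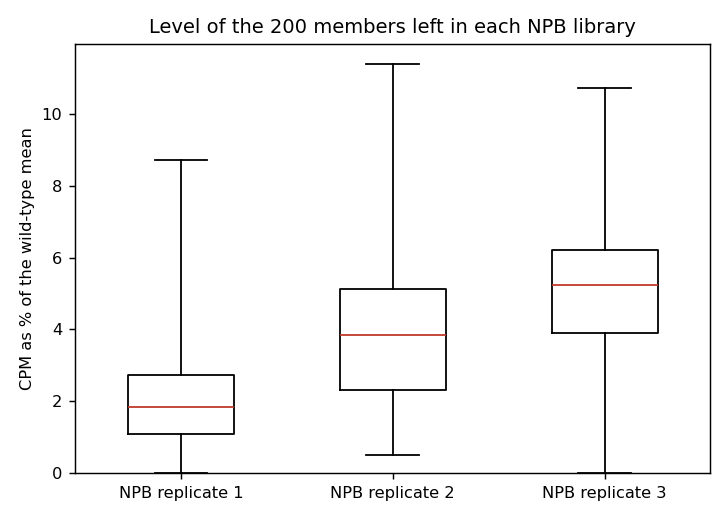
Level of the 200 transcripts in each NPB library as a percentage of the wild-type mean, from CPM of library totals. Boxes span the quartiles, red lines are the medians (1.83%, 3.83% and 5.23% in libraries 1, 2 and 3) and whiskers reach the lowest and highest transcript.

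The TPM values deposited for the NPB libraries, estimated by the authors with RSEM and corrected for transcript length, were mostly low for the set too. All 200 were listed, the median of their mean levels was 1.49 TPM, 42 were under 1 TPM in each NPB library and 164 under 5 TPM. The highest was LOC108719063 with 57.4 TPM in 1 library. In TPM, library 1 was the lowest for 165 of the 200 and library 3 the highest for 145. These values come from the same reads as the counts, and the rule chose the set for low counts in these libraries. Low TPM values were therefore largely set by the rule. In TPM, the shares of other genes were not counted.

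The morphant libraries took no part in choosing the set, and most of the transcripts reached the 10 CPM limit in them too. Of the 200, 190 were at 10 CPM or more in each morphant library. The share among the other 11331 genes at 10 CPM or more in wild type was not counted, so the 190 cannot be read as particular to the set. NPB means were at most 0.1 of the morphant mean for 198, with a median of 3.77%, and all NPB libraries lay below all morphant libraries for 198. The exceptions in both counts were nedd9.S and LOC108706483, which were low in morphants too. The common NPB libraries enter both ratios, and the rule chose the set for low levels in them. Most members were also close to their wild-type level in morphants, so both counts of 198 were largely set by the rule. Their shares among the other 11331 genes were not counted.

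The comparison of morphants with wild type asked which of these blastula transcripts differed between explants with soxb1 morpholinos and untreated explants. No group with a control morpholino was among the 9 libraries. Depletion of SoxB1 factors and other effects of the injection therefore cannot be told apart here. Wild-type libraries helped to choose the set, so these groups did not enter on equal terms. By edgeR's quasi-likelihood test without a block, 0 of the 200 were higher and 0 lower at a Benjamini-Hochberg adjusted p of 0.05, as for all 21659 genes tested (0.0% each). At an unadjusted p under 0.05 there were 18, against 5.72% of all genes tested. DESeq2 without a block called 2 higher and 5 lower (against 0.826% and 1.19% of all genes tested), and limma-voom called 0 and 0 (0.0% each). Libraries of the same replicate number deviated together, so a paired fit, in which each replicate number has its own level (the replicate block), is given beside it. In that paired fit 27 were higher (13.5%, against 5.75% of all genes tested and 5.21% of the 11531) and 21 lower (10.5%, against 6.71% and 9.23%). DESeq2 with the block called 23 higher and 16 lower, against 4.01% and 5.14% of all genes tested. Changes were mostly small. Of the 200, 186 were within 0.5 of 0 on the log2 scale (93.0%, against 95.6% of the 11531), the median was 0.02 against 0.01 for all genes tested, and at least 2-fold changes were called for 1 higher and 3 lower, against 1.68% and 1.35% of all genes tested.

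The largest difference was in nedd9.S, which encodes a docking protein of focal adhesions. nedd9.S had 1.71, 2.21 and 0.592 CPM in morphants, 68.2, 69.9 and 85.8 CPM in wild type and 4.12, 4.54 and 2.48 CPM in NPB, and it fell in morphants in the paired edgeR fit (log2 fold change -5.63, SE 0.43, adjusted p 0.0117). Without the block its adjusted p by edgeR was 0.06, and it passed there under other filters on low counts or with all 9 libraries in 1 fit. Without pair 1 its log2 fold change was -5.81 and the adjusted p of the paired edgeR fit was 0.292. Its homeolog nedd9.L, outside the set at 26.7% of wild type in NPB, had 1.05, 2.9996 and 1.15 CPM in morphants and 14.9, 26.8 and 39.2 CPM in wild type (log2 fold change -3.95, SE 0.41, adjusted p 0.0112 in the paired edgeR fit). LOC108706483 had 5.71, 6.79 and 1.35 CPM in morphants and 27.1, 24.5 and 14.2 CPM in wild type, and fell by 2.37 on the log2 scale (SE 0.26, adjusted p 0.00288, edgeR). rasl11b.S, a Ras-like GTPase gene, had 11.6, 7.80 and 6.44 CPM in morphants and 27.8, 16.5 and 12.7 CPM in wild type (log2 fold change -1.12, SE 0.11, adjusted p 8.39e-06, edgeR), while rasl11b.L had 82.3, 93.6 and 36.2 CPM in morphants and 73.1, 59.0 and 31.4 CPM in wild type and was called higher (log2 fold change 0.35, SE 0.09, adjusted p 0.0259, edgeR). Homeologs thus moved together for nedd9 and in opposite directions for rasl11b.

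Other members lower in morphants in all 3 pairs were cyp1a1.S, a cytochrome P450 gene (12.37, 18.9 and 16.6 CPM in morphants against 17.1, 42.5 and 38.0 CPM in wild type, log2 fold change -0.97), cyld.S (-0.70), XB5953084.L (-0.59), rgcc.S (-0.50) and loc100489386.S (-0.49). Their adjusted p values by the paired edgeR fit were between 0.000334 and 0.00635. XB5953084.L lost its call without pair 2 (log2 fold change -0.49, adjusted p 0.0706) and loc100489386.S without pair 1 (log2 fold change -0.44, adjusted p 0.0829) in the same edgeR fit. Smaller calls were made for klf2.L (75.3, 143 and 115 CPM in morphants against 129.8, 172 and 148 CPM in wild type, -0.47), which was no longer called without pair 1 (edgeR, log2 fold change -0.32, adjusted p 0.0721), cop1.S (-0.43) and dand5.S (-0.30).

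Among members higher in morphants, stc1.L had 161, 72.1 and 42.0 CPM in morphants against 64.1, 28.2 and 26.3 CPM in wild type and was the only 1 called with at least a 2-fold rise in the paired edgeR fit (log2 fold change 1.13, SE 0.13, adjusted p 0.00049). cpeb1.S had 67.0, 104 and 150.0 CPM in morphants against 26.2, 48.8 and 101 CPM in wild type (log2 fold change 0.99, SE 0.14, adjusted p 0.00538, edgeR). Within each group cpeb1.S was highest in replicate 3 and lowest in replicate 1, and the groups overlap unless libraries are compared within pairs. LOC108713875, provisionally zfp36, had 63.6, 53.5 and 78.2 CPM in morphants and 31.6, 40.1 and 38.8 CPM in wild type, without overlap (log2 fold change 0.81, SE 0.12, adjusted p 0.00143, edgeR). vegt.S (153, 123 and 103 CPM in morphants against 109.8, 75.8 and 46.2 CPM in wild type, log2 fold change 0.77) and vegt.L (0.36) were both called higher, as were ccna1.L (1005, 1076 and 973 CPM in morphants against 597, 773 and 766 CPM in wild type, 0.52), ccna1.S (0.45) and ccnb5.L (484, 447 and 554 CPM in morphants against 226, 262 and 431 CPM in wild type, 0.74). The cyclin B1 copies were not called (ccnb1.L 0.08, ccnb1.S 0.08). slc35a1.L, a sialic acid transporter gene, changed by 0.50 and ets1.S by 0.48. Without pair 2, the adjusted p by the paired edgeR fit was 0.0836 for cpeb1.S, 0.0861 for vegt.S and 0.177 for ccnb5.L, without pair 1 it was 0.101 for ccna1.S, and without pair 3 it was 0.0529 for vegt.L. Their log2 fold changes in those fits were 0.93, 0.81, 0.73, 0.31 and 0.24, so the directions were kept.

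**Figure D5:**
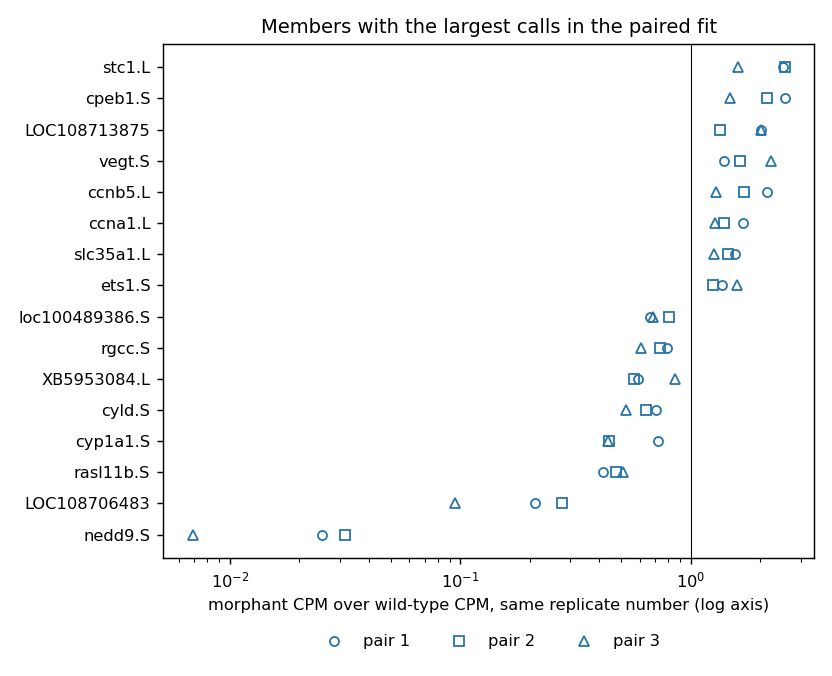
Ratio of morphant to wild-type CPM in each pair of libraries with the same replicate number, on a log axis, for the 8 largest calls in each direction in the fit with the replicate block (circle, pair 1; square, pair 2; triangle, pair 3). The choice took only calls in the same direction in 3 of 3 pairs, so the pairs of each of the 16 genes lie on 1 side of the line at 1. nedd9.S lies below 0.04 in all 3 pairs.

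By role, the paired edgeR fit called 5 higher and 0 lower of the 13 decay and translation genes, where patl2.L (0.31), zar1l.S (0.41) and ythdc2.L (0.28) joined cpeb1.S and LOC108713875. The shares of all genes tested to set beside these and the following counts were 5.75% higher and 6.71% lower, and of the 11531 genes 5.21% and 9.23%. The fit called 6 higher and 3 lower of the 15 cell cycle and spindle genes and 5 and 2 of the 18 transcription factors and signals. Of the chromatin genes 2 of 11 were higher and 0 lower, and of the metabolic genes 2 were higher and 3 lower of 19. Of the ubiquitin genes 1 was higher and 3 lower of 15, and the cytoskeletal genes had the same counts of 16. None of the 7 apoptosis genes was called in either direction. The counts depended on the pairs. The decay and translation group had 2, 2 and 6 higher and 1, 0 and 0 lower without pair 1, 2 and 3, and the cell cycle group 2, 3 and 6 higher and 2, 0 and 2 lower. Over the whole set 14 were higher and 13 lower without pair 1, 14 and 13 without pair 2 and 33 and 16 without pair 3. Of the 27 higher calls 7 and of the 21 lower calls 8 were kept whichever pair was left out. Shares of all genes tested were not counted with a pair left out. The counts from those fits therefore cannot be read as particular to the set.

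Stage 9 libraries with the same number shared highs and lows. For 145 of the 200 (72.5%) the highest morphant and the highest wild-type library had the same number, the same share as in the other genes (72.5%). Morphant levels were higher than wild type in 3 of 3 pairs for 51 members (25.5%, against 22.6% of all genes tested and 22.0% of the 11531) and lower in 3 of 3 for 54 (27.0%, against 22.5% and 26.7%).

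Lists of genes drawn up by role give the wider pathways in NPB over wild type. This contrast chose the set, so members are left out of the counts of this comparison. By edgeR without a block, of 21981 genes tested 26.9% passed as higher and 26.7% as lower in NPB. Of 110 maternal RNA regulators tested that were not members, 35 were higher and 35 lower, and another 9 of the list were members. zar2.S had 3.80, 5.74 and 6.45 CPM in NPB and 75.9, 79.5 and 82.9 CPM in wild type (log2 fold change -3.22), and msi1.S, a neural RNA binding protein, 115.5, 44.8 and 46.6 CPM in NPB and 2.79, 4.44 and 5.24 CPM in wild type (log2 fold change 4.79). Of 84 early cell cycle genes 31 were higher and 24 lower, beside 8 members. The maternal kinase gene mos.L, which holds the egg in meiosis, had 10.08, 13.6 and 16.7 CPM in NPB and 121, 119 and 132 CPM in wild type (log2 fold change -2.53), and cdk1.L 62.8, 70.9 and 63.9 CPM in NPB and 10.4, 12.21 and 14.3 CPM in wild type (log2 fold change 3.11). These 4 genes passed the test.

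Of 67 maternal chromatin and basal transcription genes 22 were higher and 17 lower, beside 1 member. Of 92 blastula zygotic and pluripotency regulators 33 were higher and 19 lower, beside 6 members. Of 45 germ plasm and vegetally localised genes 7 were higher and 19 lower, beside vegt.L and vegt.S, and the list with both summed to 759 to 869.8 CPM in NPB and 1418 to 1780.0 CPM in wild-type libraries. plin2.S, of that list, had 24.8, 47.1 and 44.6 CPM in NPB and 493, 572 and 369 CPM in wild type (log2 fold change -2.95). No member was on the epidermal or the neural plate border list, of which 20 of 30 and 39 of 51 were higher and 1 and 2 lower. Of 19 mesoderm and endoderm genes, again beside both vegt copies, 5 were higher and 8 lower. The higher genes included wnt8a.L, which shares its name with the Wnt8a mRNA of the treatment label. In morphants over wild type, with members counted and against 5.75% higher and 6.71% lower of all genes tested, the paired edgeR fit called 12 higher and 11 lower of 119 maternal RNA regulators, 17 and 6 of 91 early cell cycle genes and 8 and 8 of 67 maternal chromatin genes. It called 7 and 5 of 47 germ plasm genes, 15 and 21 of 94 blastula regulators, 7 and 2 of 28 epidermal genes, 4 and 16 of 38 neural plate border, crest and neural genes and 10 and 2 of 22 mesoderm and endoderm genes. Without the block each of these counts was 0. By library totals in place of TMM, the 8 lists with their members together had 130 higher and 222 lower calls in NPB over wild type, against 188 and 149 by TMM.

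The limit of 200 did not fall at a gap. The last transcripts inside it were ppfibp2-like.S, klhdc10.L and pot1.L, with ratios of 0.0558, 0.0559 and 0.0561 after adding 0.05 CPM. The first outside were rnf19b.L, cdc6.S and tmem251.L, at 0.0563, 0.0564 and 0.0565. cdc6.S, a replication licensing gene, had 30.5, 24.3 and 42.8 CPM in NPB and 607, 551 and 573 CPM in wild type. The names of 2 members, foxr1.L among them, were listed more than once in the tables, and reads could be divided between such loci.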

How the data were processed

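RNA from 9 libraries of animal pole explants was analysed, 3 per group. Raw counts per gene were deposited as made by the authors, who trimmed reads with fastp, aligned them to X. laevis genome 9.2 with STAR and counted them with HTSeq; tool versions, the annotation release and the strand setting are not given in the sources used here. TPM values that the authors estimated with RSEM were deposited for NPB only. A table of the authors' own DESeq2 comparison of morphants with wild type (fold changes and p-values) was not used. Counts were divided by library totals to give CPM.

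Morphants were compared with wild type, and the role lists with NPB over wild type, by edgeR 4.0.16 in R 4.3.3 (robust quasi-likelihood test, TMM, filterByExpr) over all genes tested, with Benjamini-Hochberg adjustment and a threshold of 0.05. Deviations from group means of morphant and wild-type libraries with the same replicate number had correlations of 0.868, 0.856 and 0.855. For other numbers these were -0.48 to -0.38, but deviations cancel within a group, so the negative values follow from the positive ones. The number was taken to pair the libraries because of the positive correlations. The pairing comes from the data, since no label explains the numbering. NPB and wild-type libraries were not paired in this way (-0.057, -0.011 and -0.056). The SE given with an edgeR fit is the size of the log2 fold change divided by the square root of the test's F statistic. It is not a standard error reported by edgeR. DESeq2 1.42.0, limma 3.58.1, other scalings and filters, and leaving out libraries or pairs were tried as alternatives. The edgeR fits were tested on simulated data, where the paired fit found nearly all changed genes but made false calls at above its nominal rate, and the fit without the block found fewer. The simulated counts kept the replicate effects and dispersions of the paired fit. The lower yield without the block was thus built in, and the simulation cannot decide whether the libraries should be paired.

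The members, the role lists and the tests were chosen with earlier results of these data known; role groups and families were set after names and values were seen. Genes named were the 20 with the lowest ratio and the 10 with the highest wild-type mean, drawn as points or given as values, members on role lists, the 8 largest paired calls in each direction in 3 of 3 pairs, the 3 genes on either side of the limit, and homeolog partners. Other names were chosen after their values were seen. Of the 200 names, 187 were found in the RefSeq gene table of assembly 10.1, whose coordinates were not used because the builds differ. Some members are not reported here by name.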

Additional observations from a re-analysis of the deposited data

How the results depend on the processing

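The calls between morphants and wild type depended on the pairing of libraries. Without the replicate block, edgeR called 0 members higher and 0 lower, against 27 and 21 with the replicate block. DESeq2 called 23 and 16 with the block and 2 and 5 without it, and summing L and S counts gave 26 and 20 with the block. Shares of all genes tested were not counted with L and S summed or with a pair left out. With the block, leaving out 1 pair gave 14 to 33 higher and 13 to 16 lower. Without it, 1 member was lower with all 9 libraries in 1 fit, with every gene holding 1 or more counts over the libraries kept, and with at least 10 counts in every library. Leaving out 1 library gave 0 to 1 lower, the 1 being nedd9.S without morphant replicate 3. Summing L and S counts turned rasl11b.S to 0.09 on the log2 scale, since its homeolog moved the other way. For the role lists in NPB over wild type, the replicate block gave 176 higher and 142 lower calls against 188 and 149, and the counts stayed within 1.5 times of these under every alternative run. Choosing the set by TMM kept 178 of the 200, adding 0.5 CPM 177, a minimum of 20 CPM 147 and of 5 CPM 180. By TMM 234 genes were at or under the ratio limit, against 618 by library totals. In TPM 42 members were under 1 in each NPB library, which the rule favours. Levels near the floor of 3 counts carry large counting error.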
